A study of Mus musculus with 12 samples.

Results

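Secretory epithelia move fluid by letting chloride and bicarbonate leave through channels of the apical membrane, and 10 of the 15687 genes counted in 12 mouse tumors belong to the set of such channels and their accessory proteins described here. They are the 7 genes whose symbol begins with Clca and a digit (*Clca1*, *Clca2*, *Clca3a1*, *Clca3a2*, *Clca3b*, *Clca4a* and *Clca4b*), with *Cftr*, *Ano1* and *Ano9*. The annotation holds 11 such symbols, and the pseudogene *Clca4c-ps* was not analysed here. The set was proposed after *Clca4b* had been seen among the larger increases in these same tumors, so the genes were chosen by measured values of this very contrast. Their differences between groups are therefore given as a description, with no p-value, and whether a gene passed the thresholds used for all genes is given only as a count. The filter on low values, a mean of 5 normalized counts, removed 0 listed genes, since every listed gene had a mean of at least 9.28. The CTL means of *Clca4a* (3.24) and *Clca4b* (7.11) lay under that, so only their KD values brought them over it.

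The tumors grew from mTC11, a mouse lung cancer line, written mTc11 in the sample labels. Cells in Matrigel were placed under the skin of 8-week-old male C57BL6/J mice, and tumors were taken on day 24 and frozen. The 6 CTL tumors came from cells with a scrambled short hairpin RNA, and the 6 KD tumors came from cells with a lentiviral short hairpin RNA against *Filip1l*. In the study's methods the knockdown lines were mixed puromycin-resistant clones made with a pair of target sequences, and the labels do not say which was sequenced. Tumors of a group may share the origin of their cells, and p-values measure the spread between tumors only. Host cells are part of each tumor, and fewer cells of a type cannot be told apart from less RNA per cell.

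CFTR is an anion channel of apical membranes that is activated through cyclic AMP signaling, and loss of it causes cystic fibrosis. ANO1, also called TMEM16A, is a calcium-activated chloride channel of airway and gland epithelium, and ANO9 is a relative for which lipid scrambling has been described. CLCA proteins were first taken for chloride channels and are now known as self-cleaving metalloproteases that are secreted or held at the cell surface, and CLCA1 raises the surface level of ANO1. In the gut, CLCA1 is a product of mucus-secreting goblet cells.

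The 7 *Clca* genes lie side by side on the minus strand of chromosome 3, in 370 kb between positions 144729677 and 145099443 of build mm10. Several are near copies. The longest coding transcripts of *Clca3a1* and *Clca3a2* were 96.4% identical over 3427 aligned bases, those of *Clca4a* and *Clca4b* were 95.6% identical over 2996 bases, and *Clca3b* was 87.8% identical to *Clca3a1* and 87.7% identical to *Clca3a2*. Stretches of 150 bases, the length of a read, that occur in more than 1 gene made up 2.39% of *Clca3a1*, 2.36% of *Clca3a2*, 7.67% of *Clca4a* and 0.667% of *Clca4b*, and 0 of the other 6 genes. The stretches of *Clca4a* are shared with *Clca4b* and the pseudogene *Clca4c-ps*. The study counted unique hits, and how reads from such stretches were treated in these genes was not tested. Exons of an antisense transcript cover 4.36% of the exonic bases of *Clca3a1*, 6.06% of *Clca3a2*, 11.1% of *Clca4a* and 1.66% of *Cftr*, and the counting was not stated to use strand, so reads from the antisense RNA cannot be told apart from those of the gene.

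The bases just before the start of 3 of the *Clca* genes are shown, *Clca4b* and *Clca3b* for their large differences between the tumors and *Clca3a1* for its small one. RefSeq promoter windows of build GRCm38.p6 were matched by symbol for 7 of the 10 genes, and *Clca1*, *Clca4a* and *Ano9* had no entry. All 3 sequences are read on the minus strand, from 250 bases before the RefSeq start, and the *Clca3b* sequence stops after 195 bases because its RefSeq start lies inside an annotated transcript. They are *Clca4b* at chr3:144932530-144932779, *Clca3b* at chr3:144849358-144849552 and *Clca3a1* at chr3:144760978-144761227. Capitals mark matches, on either strand, to the letters searched.
Clca4b: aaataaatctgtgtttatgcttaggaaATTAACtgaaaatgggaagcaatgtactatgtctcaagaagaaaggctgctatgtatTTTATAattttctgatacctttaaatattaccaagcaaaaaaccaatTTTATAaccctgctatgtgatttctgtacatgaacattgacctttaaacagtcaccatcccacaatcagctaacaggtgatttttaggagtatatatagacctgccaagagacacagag
Clca3b: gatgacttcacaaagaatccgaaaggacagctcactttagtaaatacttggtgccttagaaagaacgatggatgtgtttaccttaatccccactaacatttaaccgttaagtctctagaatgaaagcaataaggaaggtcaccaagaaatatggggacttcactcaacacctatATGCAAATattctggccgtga
Clca3a1: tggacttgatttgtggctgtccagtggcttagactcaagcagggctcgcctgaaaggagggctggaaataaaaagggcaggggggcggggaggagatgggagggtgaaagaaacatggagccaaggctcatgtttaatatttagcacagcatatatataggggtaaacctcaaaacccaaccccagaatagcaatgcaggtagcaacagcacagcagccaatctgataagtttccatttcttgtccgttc

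The letters were searched in the 250 bases before each start, and the marked matches do not overlap. They were TATAAA for the promoter box of that name, ATGCAAAT for the octamer, CTTTGAT for TCF and LEF factors, AGATAA for blood and gut factors of the GATA family, TTTATNG for CDX factors and GTTAAT for a part of the HNF1 site. Among the windows shown, the octamer stood in *Clca3b*, 76 bases before the start, and in 1.60% of all 32851 windows. *Clca4b* held TATAAA on the reverse strand at 166 and at 119 bases before the start, letters found in 12.4% of all windows, and GTTAAT on the reverse strand, found in 6.43%. The letters for GATA, TCF and LEF, and CDX factors, with shares of 9.99%, 3.21% and 9.81% of all windows, had 0 matches in the windows shown. The *Cftr* window was 76.4% G and C and that of *Clca4b* 33.2%, against a median of 52.4% over all windows.

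The files hold normalized counts, which are read counts divided by a factor for each tumor. Whole reads could be recovered, and the totals were 17834745 to 29502069 reads in CTL tumors and 25460564 to 32419578 in KD tumors. A floor of 3 reads was worth 2.59 to 4.48 normalized counts. *Filip1l*, the targeted gene, averaged 2311 ± 211 in CTL and 1924 ± 165 normalized counts in KD tumors (SD, n = 6 each), a log2 difference of -0.26 with an SE of 0.07 (limma adjusted p = 0.00998). The groups overlapped for it, and 0 of 6 KD tumors lay above the CTL median.

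*Clca4b*, an intestinal member of the family (ENSMUSG00000074195, chromosome 3 from 144910921 to 144932529), had the largest difference of the set. Its lowest, median and highest CTL values were 1.89, 7.53 and 11.0 normalized counts, and those of the KD tumors were 281, 652 and 947. Every KD tumor lay above every CTL tumor, and 1 CTL tumor was at or under 3 reads. The means were 7.11 ± 3.06 and 634 ± 249 normalized counts (SD, n = 6 each), a ratio of 89.2, and on the log2 scale of normalized count plus 1 the difference was 6.30 with an SE of 0.35.

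*Clca3b* (ENSMUSG00000037033, chromosome 3 from 144822623 to 144849357) followed, with a smaller error. CTL tumors ran from 24.3 through a median of 31.9 to 40.9 normalized counts, and KD tumors from 411 through 611 to 893. The means of 32.1 ± 5.42 and 632 ± 192 gave a ratio of 19.7 and a log2 difference of 4.21 with an SE of 0.19. In KD tumors the SD was 30.4% of the mean for *Clca3b* and 39.3% for *Clca4b*.

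*Clca4a* (ENSMUSG00000068547, chromosome 3 from 144952480 to 144975045), the near copy of *Clca4b*, stayed close to the floor in CTL tumors, with values of 0, 2.95 and 7.05 normalized counts at the lowest, median and highest tumor and 3 of 6 tumors at or under 3 reads. In KD tumors these values were 12.1, 45.1 and 72.9. The groups did not overlap, and the log2 difference was 3.43 with an SE of 0.54, the widest error of the set. With a pseudocount of 8 in place of 1 the log2 difference was 2.05 for *Clca4a* and 5.33 for *Clca4b*, whose CTL values also lay close to the floor.

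*Clca1*, the goblet cell product (ENSMUSG00000028255, chromosome 3 from 145003817 to 145032776), had 11.7, 16.0 and 28.4 normalized counts at the lowest, median and highest CTL tumor and 50.4, 138 and 382 in KD tumors. The groups did not overlap, and the value of 382, in KD tumor 2, stood far above the other KD tumors. The log2 difference was 2.94 with an SE of 0.38, and 2.64 without that tumor.

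*Clca3a2* (ENSMUSG00000028262, chromosome 3 from 144796559 to 144819494) had 13.4, 23.1 and 40.9 normalized counts in CTL tumors against 64.8, 85.8 and 106 in KD tumors. Here too the groups did not overlap, with a log2 difference of 1.82 and an SE of 0.26. Its near copy *Clca3a1* (ENSMUSG00000056025, chromosome 3 from 144729677 to 144760977), known from lymphatic endothelium, behaved otherwise. CTL tumors had 31.4, 48.3 and 60.8 normalized counts and KD tumors 34.6, 64.1 and 106, so the groups overlapped, and 4 of 6 KD tumors lay above the CTL median. The log2 difference of 0.37 had an SE of 0.26, and it was 0.21 without KD tumor 1, which had the value of 106.

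*Clca2* (ENSMUSG00000036960, chromosome 3 from 145070263 to 145099443), the family member of basal and stratified epithelium, also overlapped. Its CTL values were 27.5, 37.8 and 56.8 normalized counts and its KD values 41.1, 51.8 and 61.4 at the lowest, median and highest tumor, with a log2 difference of 0.44 and an SE of 0.19. The members at both ends of the cluster, *Clca3a1* and *Clca2*, thus had the smallest differences among the *Clca* genes.

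*Cftr* (ENSMUSG00000041301, chromosome 6 from 18170687 to 18322768, plus strand) had 537, 1111 and 2193 normalized counts in CTL tumors and 5864, 7952 and 11357 in KD tumors. The groups were well apart, with means of 1226 ± 573 and 8309 ± 1821 (SD, n = 6 each), a ratio of 6.78 and a log2 difference of 2.86 with an SE of 0.26. *Ano9* (ENSMUSG00000054662, chromosome 7 from 141101212 to 141117806, minus strand) had 114, 151 and 164 normalized counts against 296, 349 and 414. It was apart as well, with a log2 difference of 1.30 and an SE of 0.12.

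*Ano1* (ENSMUSG00000031075, chromosome 7 from 144588549 to 144751974, minus strand) was the exception in direction. Its CTL tumors had 12029.9, 17605 and 18431 normalized counts and its KD tumors 10871, 12272 and 16140.1. The groups overlapped, 0 of 6 KD tumors lay above the CTL median, and the log2 difference was -0.36 with an SE of 0.12.

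**Figure D1:**
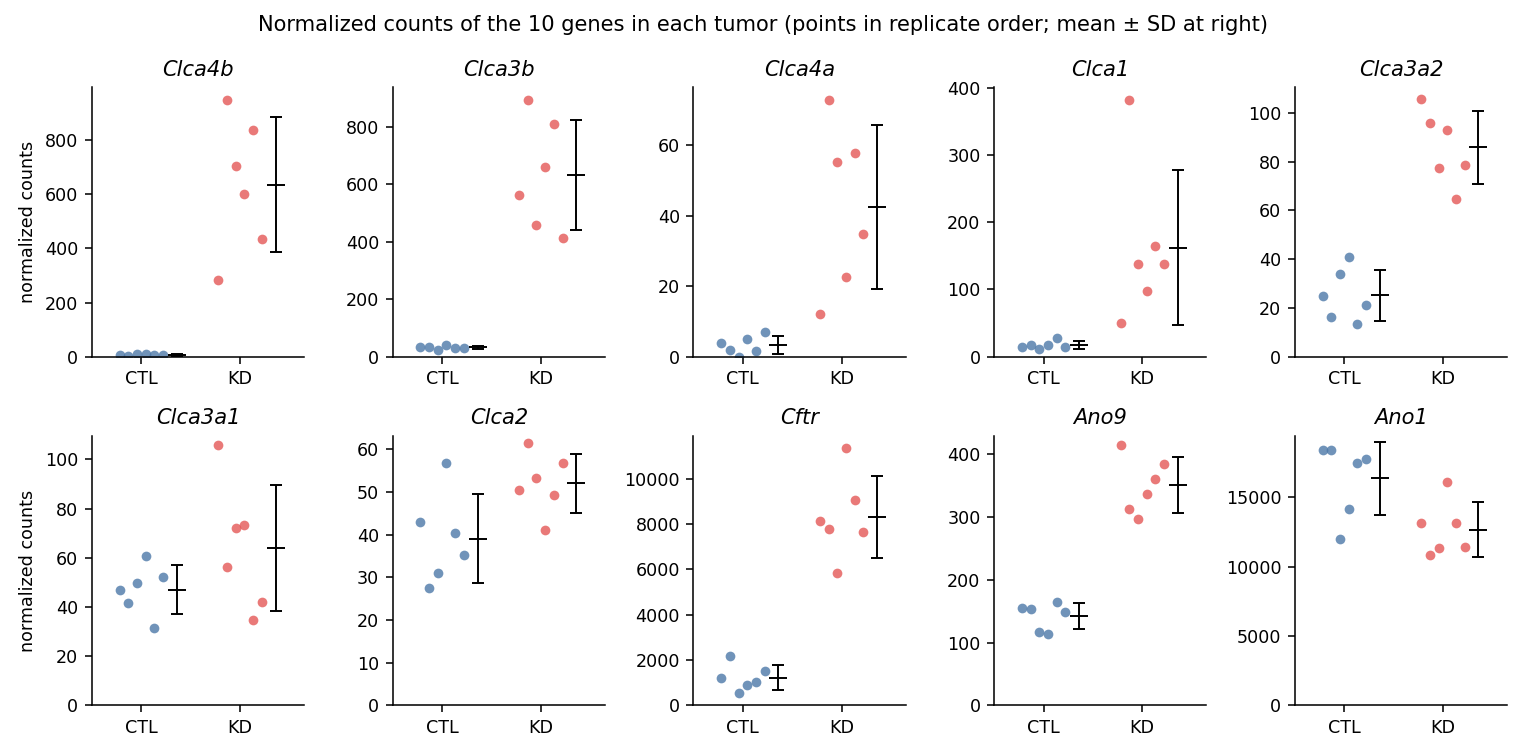
Normalized counts (vertical axes, each from 0) of the 10 genes in the 6 CTL and 6 KD tumors. Each point is a tumor in replicate order, and the bar beside each group is the mean with its SD. *Clca4b* in CTL tumors reached at most 11.0 and in KD tumors at least 281, whereas the groups overlap for *Clca3a1*, *Clca2* and *Ano1*.

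In the limma fit over all genes, 7 of the 10 genes were past both an adjusted p of 0.05 and an absolute log2 difference of 1, all 7 higher in KD tumors and 0 lower, and 5 of the 7 *Clca* genes were among them. Over all 15687 genes, 6.2% were past these thresholds upward, 3.97% downward and 10.2% in either direction. The same 7 genes had every KD tumor above every CTL tumor, as had 10.6% of all genes. Since the set was chosen with this contrast known, nothing is read from these counts. The median log2 difference was 2.34 over the 10 genes and 0.01 over all genes.

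Sums of simple epithelium, of enterocyte and of blood endothelium markers were also higher in every KD tumor than in any CTL tumor. The summed level of 6 simple epithelium markers (*Epcam*, *Krt8*, *Krt18*, *Krt19*, *Cdh1*, *Cldn7*) was 135463 to 176172 normalized counts in CTL tumors and 189996 to 354598 in KD tumors, and 4 of the 6 were past the thresholds upward, while *Cdh1* had a log2 difference of 0.01. With each tumor rescaled to the geometric mean of these markers, an alternative chosen after seeing the data, the median of all genes shifted to -1.15. On that scale the log2 differences were 5.22 for *Clca4b*, 3.07 for *Clca3b*, 2.48 for *Clca4a*, 1.81 for *Clca1* and 1.70 for *Cftr*. They were 0.68 for *Clca3a2* and 0.14 for *Ano9*, both under 1. The sign turned for *Clca3a1*, at -0.77, and for *Clca2*, at -0.70, and *Ano1* stood at -1.53. The part of epithelial content in the differences was not tested.

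**Figure D2:**
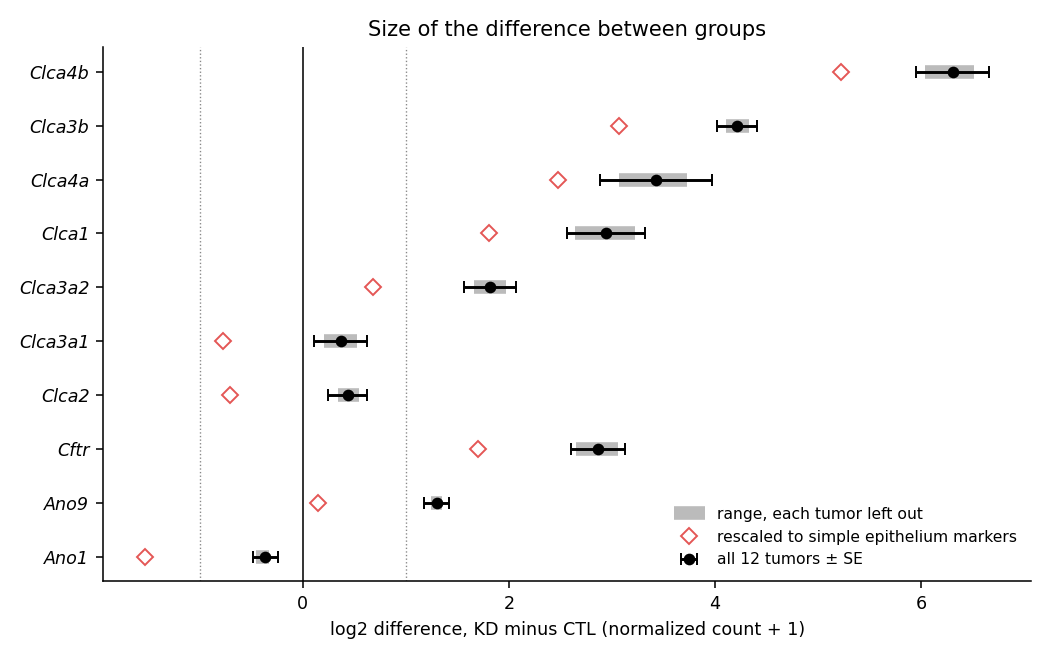
Log2 difference between KD and CTL tumors (horizontal axis, on normalized count plus 1) for each of the 10 genes. Black points with bars are the values with their SE over 12 tumors, gray bands the range when each tumor is left out, and open diamonds the values after rescaling to simple epithelium markers. Dotted lines mark an absolute difference of 1. *Ano9* moves from 1.30 to 0.14 under the rescaling and *Clca4b* from 6.30 to 5.22.

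The other marker lists place these values. Beside their counts, 6.2% of all genes were past the thresholds upward and 3.97% downward. Enterocyte markers summed to 11823 to 17255 normalized counts in CTL tumors and 44662 to 96260 in KD tumors. Of these, 6 of 7 were past the thresholds upward, and *Cdx1* was not analysed here. The exception was *Fabp1*, with means of 36.4 in CTL and 31.8 in KD tumors. Among the 6, *Alpi* and *Fabp2* had CTL means of 5.92 and 3.55 normalized counts. Both lay under the lowest listed mean of 9.28, so only their KD values brought them over it. *Lgals4* (9402 and 44131) and *Cdh17* (4466 and 23868) made up most of the sum. Goblet cell markers summed to 901 to 6539 and 3640 to 23360, most of it *Fcgbp* (means 2883 and 9903). Of these 4 of 6 were upward, all but *Spdef* (log2 0.19) and *Tff3* (log2 1.53, limma adjusted p = 0.13). The groups overlapped for both, and also for *Fcgbp* and *Spink4*, which were upward. *Muc2*, upward as well, had a CTL mean of 6.60, under the lowest listed mean of 9.28. Lung epithelium markers summed to 1116 to 2849 and 1888 to 3669, with 1 of 6 upward and 1 downward. Their means in CTL and KD tumors were 1737 and 2068 normalized counts for *Sftpd*, 244 and 461 for *Napsa*, 107 and 29.9 for *Foxj1*, 29.7 and 304 for *Sftpb*, 17.2 and 39.4 for *Nkx2-1* and 9.76 and 29.2 for *Sftpc*, and *Sftpa1*, *Scgb1a1* and *Scgb3a2* were not analysed here. Of 6 gastric markers 2 were upward and 1 downward (sums 667 to 4954 and 385 to 3479). Of 8 skeletal muscle markers 6 were upward (2242 to 12045 and 5161 to 86381, the highest in KD tumor 3). For epidermis 1 of 6 was downward (1220 to 4035 and 1655 to 3860), and for leukocytes 1 of 5 upward (1822 to 2523 and 2370 to 4962). For smooth muscle and Cajal cells 1 of 6 was upward (4047 to 7911 and 4837 to 11596), *Des*, with a log2 difference of 2.04. The rest of that list had -0.61 (*Acta2*), -0.46 (*Cnn1*), 0.09 (*Myh11*), 0.07 (*Kit*) and 0.84 (*Etv1*). For fibroblasts 0 of 6 were past the thresholds (159034 to 258613 and 74138 to 250941), for blood endothelium 0 of 4 (2221 to 2775 and 2784 to 4340), and for lymphatic endothelium 1 of 4 downward, *Prox1* (1034 to 1877 and 839 to 2025). No marker in the table was at or under 3 reads in every tumor.

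KD tumor 1 shows how the genes part company within a group. It had the lowest KD values of *Clca4b*, *Clca4a* and *Clca1* and the lowest sums of simple epithelium, enterocyte and goblet cell markers. The same tumor had the highest KD values of *Clca3a1*, *Clca3a2* and *Ano9* and the highest sums of fibroblast, lymphatic endothelium, blood endothelium and leukocyte markers. What these markers contribute was not tested. KD tumor 2 had the highest KD values of *Clca4b*, *Clca4a*, *Clca1*, *Clca3b* and *Clca2* and the highest sum of goblet cell markers. The highest sums of simple epithelium and enterocyte markers were in KD tumor 6. That tumor had the lowest KD value of *Clca3b*, 411 normalized counts, and 434 for *Clca4b*, so these genes did not follow those sums in every KD tumor.

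Levels between genes were compared as normalized counts per kb of exon. In CTL tumors *Ano1* led with 2621 ± 425, followed by *Cftr* with 158 ± 73.7 and *Ano9* with 32.2 ± 4.80 (SD, n = 6 each), and each of these was above the next in every tumor. The *Clca* genes followed from 12.1 ± 2.55 for *Clca3a1* down to 1.08 ± 0.862 for *Clca4a*, and each overlapped its neighbor in the order. In KD tumors *Ano1* had 2030 ± 314 and *Cftr* 1070 ± 234, and *Clca4b* with 212 ± 83.1 and *Clca3b* with 188 ± 57.1 came next, overlapping with each other. *Clca3b* was above *Ano9*, at 79.6 ± 10.1, in every KD tumor. *Clca4b* thus moved from place 9 of 10 to place 3, and *Clca3a1* from place 4 to place 8.

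The makeup of the set differed accordingly. *Ano1* held 91.9% ± 1.51 of the summed level per kb of the 10 genes in CTL tumors and 55.1% ± 3.75 in KD tumors. The share of *Cftr* was 5.34% ± 1.83 and 28.8% ± 2.55, and that of the 7 *Clca* genes together 1.61% ± 0.504 and 13.8% ± 4.42. *Ano1* exceeded *Cftr* by 10.4 to 27.9 times in CTL tumors and by 1.74 to 2.40 times in KD tumors. Within the *Clca* family, *Clca3a1* had the largest mean share in CTL tumors, 27.3% ± 3.76, and 3.68% ± 2.31 in KD tumors. *Clca4b* and *Clca3b* held 5.21% ± 1.84 and 21.8% ± 3.39 of the family in CTL tumors and 41.0% ± 7.42 and 37.7% ± 6.84 in KD tumors. The share of *Clca4a* was 2.34% ± 1.80 and 2.69% ± 1.07, within their SD of each other although the level differed.

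**Figure D3:**
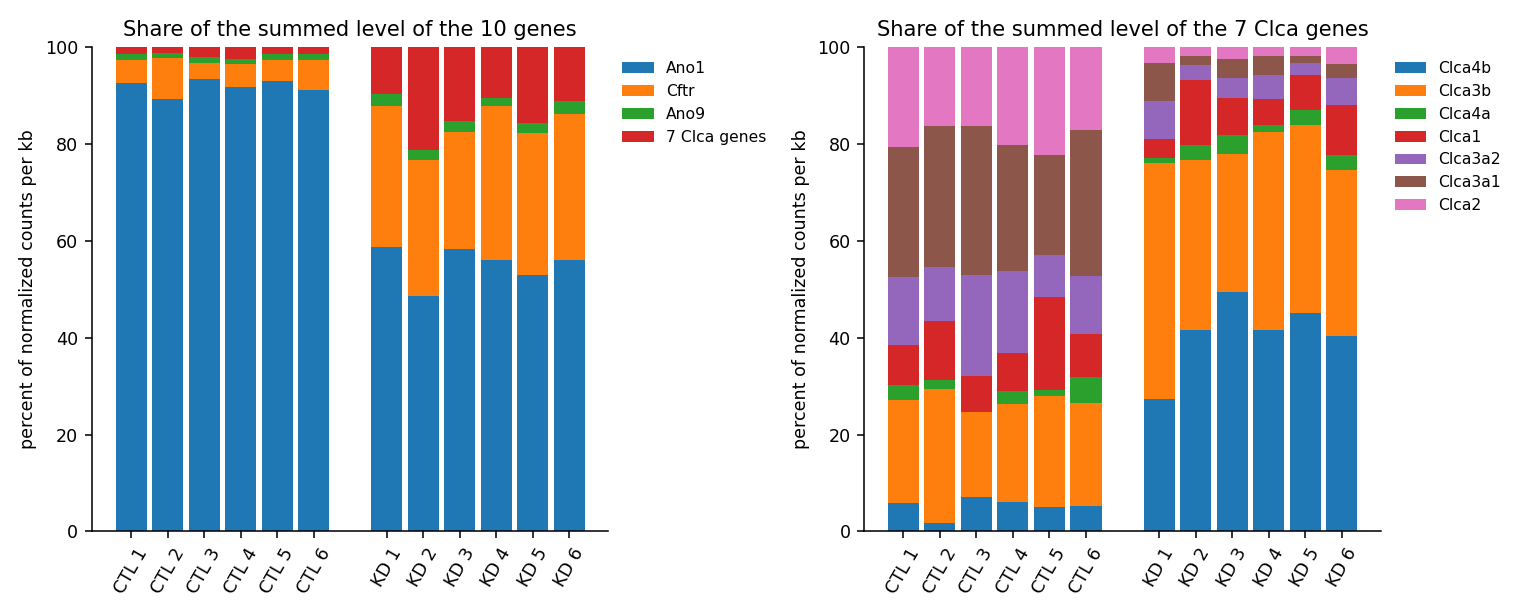
Share (vertical axes, percent of normalized counts per kb of exon) of each gene in each of the 12 tumors (horizontal axes), among all 10 genes on the left and among the 7 *Clca* genes on the right. *Ano1* takes 89.3% to 93.4% of the left bars in CTL tumors and 48.7% to 58.7% in KD tumors, and *Clca4b* and *Clca3b* fill most of the right bars in KD tumors.

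Within groups the pairs of genes varied together in either direction. After each group's mean was removed, the median Pearson r of log2 values over the 45 pairs of genes was 0.01 across 12 tumors, and 1 pair exceeded 0.7. That pair was *Cftr* and *Ano1*, at 0.83, with 0.87 among CTL tumors and 0.84 among KD tumors, although the group means of these genes differed in opposite directions. *Clca3a1* and *Clca3a2*, which share stretches of sequence, had an r of 0.67. *Clca4b* and *Clca4a* had 0.47 in all, 0.13 among CTL tumors, where both were close to the floor, and 0.90 among KD tumors. *Clca1* had 0.91 with *Clca4a* and 0.86 with *Clca4b* among KD tumors, against 0.13 and -0.21 among CTL tumors. *Ano9* and *Ano1* had 0.64 in all, 0.90 among CTL tumors and 0.26 among KD tumors. In the other direction, *Clca4b* and *Ano9* had the lowest r over all tumors, -0.66, followed by *Clca3a1* and *Clca1* at -0.61. *Clca3a2* and *Ano9* had -0.91 among CTL tumors and 0.18 among KD tumors, and *Clca2* and *Ano1* had -0.10 and -0.97. In every tumor both genes of a pair were read from the same library, and the values within a group rest on 6 tumors.

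The genes most like a member within groups were sought among the 12888 genes averaging 50 normalized counts or more. For *Clca4b* they were *Apba3*, *Lypd8* and *Lmf1* (r of 0.91, 0.90 and 0.89), for *Clca3b* *Aqp2*, *Ampd3* and *Pisd* (0.84, 0.84 and 0.81), and for *Clca1* *Frk*, *Gnb1* and *2510039O18Rik* (0.95, 0.94 and 0.93). *Lypd8* also had a log2 difference of 6.09 between groups (limma adjusted p = 1.02e-07), while that of *Apba3* was 0.02. For *Clca3a1* they were *Tmem100*, *Msantd3* and *Adgra2* (0.93, 0.90 and 0.89), and for *Clca3a2* *Hdgfl2*, *Nbdy* and *Itm2c* (0.83, 0.81 and 0.80). *Cftr* was nearest to *Idi1*, *Zfp809* and *Tbl1x* (0.92, 0.92 and 0.91), *Ano1* to *Kdm6a*, *Kif13a* and *Sgsm2* (each 0.96), and *Ano9* to *Rbbp8*, *Tbc1d5* and *Hectd2* (0.92, 0.90 and 0.90). *Clca4a* and *Clca2* had means under 50 and were not searched. The genes named for each member had the highest r among the 12888 genes compared. How high the largest of so many values would run by chance was not tested, so nothing is read from these likenesses.

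The genes that flank the members on the chromosome were tested in the same fit, 3 on each side of the cluster and of each single gene. Beside the *Clca* cluster, *Sh3glb1*, 9.34 kb away, had a log2 difference of -0.12 (limma adjusted p = 0.111), and *Odf2l*, 19.1 kb away on the other side, one of 0.52 (adjusted p = 0.000713), short of the threshold of 1. *Selenof*, *Hs2st1*, *Col24a1* and *Znhit6* lay between -0.70 and 0.03. Of all 24 flanking genes 1 was past both thresholds, against 10.2% of all genes. It was *Asz1*, a germ cell gene 61.6 kb from *Cftr*, which rose from 13.7 ± 7.68 to 73.5 ± 24.2 normalized counts (log2 2.48, SE 0.39, adjusted p = 0.000172). The other genes around *Cftr* were *St7*, *Wnt2*, *Cttnbp2*, *Lsm8* and *Tspan12*, with log2 differences from -1.09 to 0.23. Only listed protein-coding genes were taken, so *Lsm8* and *Tspan12* lay as far as 526 and 3449 kb from *Cftr*. *Wnt2*, at -1.09 (adjusted p = 0.0662), passed both thresholds at -1.28 without CTL tumor 2 and at -1.35 without KD tumor 1, and *Col24a1* did so at -1.09 without KD tumor 1. Around *Ano1*, the genes *Cttn*, *Ppfia1*, *Fadd*, *LTO1*, *Ccnd1* and *Tpcn2* ranged from -0.20 to 0.40. Around *Ano9* they were *B4galnt4*, *Pkp3*, *Sigirr*, *Ptdss2*, *Rnh1* and *Hras*, from -0.65 to 0.49, with *Sigirr*, 0.640 kb away, at -0.65 (adjusted p = 2.67e-05). The median log2 difference of genes on chromosome 3 was 0.03, on chromosome 6 -0.02 and on chromosome 7 0.00.

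**Figure D4:**
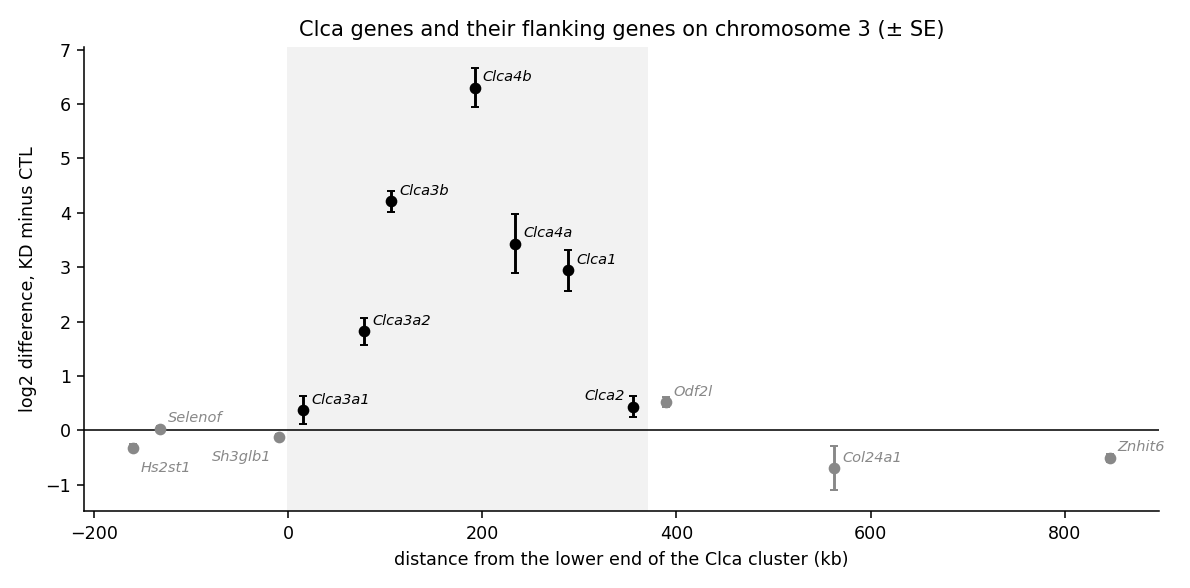
Log2 difference between KD and CTL tumors with its SE (vertical axis) for the 7 *Clca* genes, in black at their midpoints, and 6 flanking genes, in gray at their nearest end, by distance from the lower end of the cluster in kb (horizontal axis). The shaded span is the cluster. The largest values, 6.30 for *Clca4b* and 4.21 for *Clca3b*, lie inside it, and the flanking genes lie between -0.70 and 0.52.

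Other genes that load, gate or accompany chloride and bicarbonate were taken from 9 lists of 109 names, of which 87 were in the table. Of these 87, 14 rose and 3 fell past both thresholds, 19.5% against 10.2% of all genes, and their median log2 difference was 0.05 against 0.01. The list for cyclic nucleotide and calcium control of secretion held the largest changes, with 4 of 15 genes higher and 1 lower. The gut peptides *Guca2a* (guanylin) and *Guca2b* (uroguanylin) rose from 2.74 ± 2.86 to 159 ± 86.1 and from 2.98 ± 2.76 to 116 ± 50.6 normalized counts, log2 5.64 and 5.05 (limma adjusted p = 4.47e-06 and 2.05e-06). Each had 4 of 6 CTL tumors at or under 3 reads. Their receptor *Gucy2c*, a guanylyl cyclase, rose from 5.22 ± 3.62 to 23.7 ± 8.49 (log2 2.10, adjusted p = 0.000793), and *Vipr1*, a receptor for vasoactive intestinal peptide that raises cyclic AMP, from 31.7 ± 10.0 to 579 ± 186 (log2 4.13, adjusted p = 6.42e-08). *Prkg2*, the cyclic GMP-dependent kinase that phosphorylates CFTR, fell from 3705 ± 908 to 1709 ± 299 (log2 -1.09, adjusted p = 9.55e-05). In none of these 5 called genes did the groups overlap. Every KD tumor lay above every CTL tumor in 10.6% of all genes, and the share in the downward direction was not computed.

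Basolateral transport loads the cell with chloride and recycles potassium, and 2 of 12 genes of that list rose. *Kcne3*, the subunit that keeps the KCNQ1 potassium channel open in gut and airway, rose from 1192 ± 381 to 3332 ± 727 (log2 1.52, limma adjusted p = 4.69e-05), while *Kcnq1* itself had 2482 ± 560.0 and 2743 ± 485 (log2 0.15, adjusted p = 0.423). *Kcnk5* rose by 1.04 (adjusted p = 7.49e-06), and that call was lost at 0.66 with the median of each chromosome removed and at 0.97 without CTL tumor 4. *Slc12a2*, the sodium-potassium-chloride cotransporter that loads chloride, and *Kcnq1* were named after their values were seen. *Slc12a2* was not past the threshold of 1, with 14052 ± 1304 and 8801 ± 1294 normalized counts, a log2 difference of -0.68 (adjusted p = 4.57e-05) and no overlap of the groups.

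Among the other channel families, 2 of 5 anoctamins rose, *Ano5* (log2 2.59, limma adjusted p = 0.00592) and *Ano7* (1.62, adjusted p = 0.012), both low and with overlapping groups. *Ano5* is a muscle gene, and the part of the skeletal muscle markers given above was not tested. Of 8 CLC genes 2 rose, the muscle chloride channel *Clcn1* (1.46, adjusted p = 0.00034) and the widely expressed *Clcn2*, from 794 ± 104 to 2167 ± 381 normalized counts (1.44, adjusted p = 8.5e-07). Of 14 volume-regulated and other anion channel genes 2 rose, *Ttyh1* (2.65, adjusted p = 9.29e-06) and *Clic5* (1.35, adjusted p = 2.21e-05). Among 5 SLC26 exchangers, *Slc26a4* (pendrin) rose by 1.82 (adjusted p = 0.0178) from 4.98 ± 2.81 normalized counts, a call that was lost at 0.99 with a pseudocount of 8. *Slc26a9*, an epithelial chloride transporter, fell from 655 ± 178 to 284 ± 47.9 (-1.18, adjusted p = 6.52e-05), and 3 of 5 passed in neither direction. In the bicarbonate and water list of 12, *Car9*, a hypoxia-induced carbonic anhydrase, rose by 1.37 (adjusted p = 0.000121) and *Aqp5*, a water channel of lung and glands, fell from 779.9 ± 142 to 242 ± 81.5 (-1.74, adjusted p = 1.88e-05).

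No gene of the remaining lists passed both thresholds. For CFTR scaffolds, trafficking and WNK kinases this was 0 of 11, and the most abundant, *Ezr* and *Wnk1*, had log2 differences of -0.07 (limma adjusted p = 0.432) and -0.41 (adjusted p = 0.00625). For sodium absorption it was 0 of 5, with *Nedd4l*, a ubiquitin ligase for the epithelial sodium channel, at 0.48 (adjusted p = 0.000116) and the kinase *Sgk1* at -0.50 (adjusted p = 0.0791). An adjusted p under 0.05 alone, without the size threshold, was reached by 5 of the 11 and 3 of the 5, and by 53 of the 87 genes of all lists. The share over all genes is not given here, so nothing is read from these counts.

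**Figure D5:**
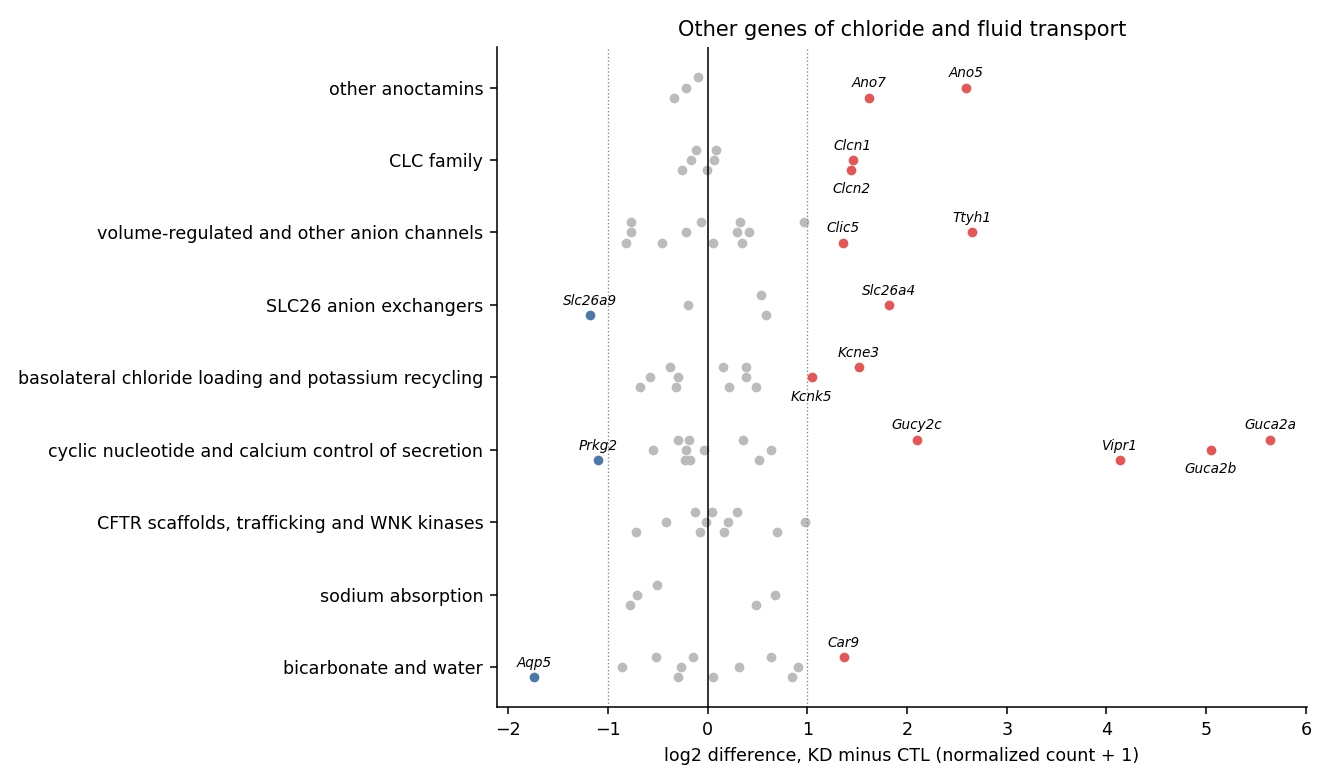
Log2 difference between KD and CTL tumors (horizontal axis, on normalized count plus 1) for 87 other genes of chloride and fluid transport, by list (vertical axis). Each point is a gene, named and in red (higher) or blue (lower) where it passed both thresholds and gray otherwise, and dotted lines mark an absolute difference of 1. The 14 higher genes include *Guca2a* at 5.64 and *Vipr1* at 4.13, and the 3 lower ones are *Aqp5*, *Slc26a9* and *Prkg2*.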

How the data were processed

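RNA from 12 tumors, 6 CTL and 6 KD, was sequenced. Per the labels and the submitters' processing notes, reads were handled with bcl2fastq 2.20, Trimmomatic 0.36, STAR 2.5.2b on mm10, and featureCounts of Subread 1.5.2. The authors deposited counts normalized by DESeq2 size factors, a signal per gene that is not a raw count. All 15687 listed genes had a mean of at least 9.28, so the filter at a mean of 5 removed 0. Gene names came from GENCODE vM21, which held 99.8% of the identifiers.

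The fit of limma 3.58.1 (R 4.3.3) used log2(normalized count + 1), a mean-variance trend and Benjamini-Hochberg adjustment over all genes. A call required both an absolute log2 difference over 1 and an adjusted p under 0.05, as in the study's methods. Every low value was a whole multiple of what 1 read was worth, within 0.001 reads for 100% of values, so edgeR 4.0.16 and DESeq2 1.42.0 were also run on the recovered reads, a choice made after seeing the data. The limma step was tested on simulated data. Members, lists and tests were chosen with earlier results of these data known. Named genes are all members, up to 4 called genes per direction of each pathway list or else its 2 most abundant, flanking genes by position, the 3 most alike genes of members with a mean of at least 50, and *Filip1l*; *Slc12a2*, *Kcnq1* and individual markers are exceptions. Sequences and alignments used Biopython 1.88, and figures matplotlib 3.10.9. Some details of the line and some sequence are not reported here.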

Additional observations from a re-analysis of the deposited data

Results flagged for a closer look

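*Clca1* in KD tumor 2, at 382 normalized counts, stood apart from the other 5 KD tumors: its gap to the nearest of them was 0.654 of the whole range of the group, above Dixon's 95% critical value for 6 samples. It was the only such value among the 20 groups examined, 10 genes in each of CTL and KD, and chance flags about 1 in 20.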

How the results depend on the processing

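As a description, the same 7 genes of the set were past both thresholds in all 12 fits without a single tumor and in 11 of 12 other alternatives. The exception was the rescaling to simple epithelium markers, which gave 6 (5 higher and 1 lower). Among the other alternatives, the fit with no filter was the main fit itself, since the filter removed 0 genes. The filter at a mean of 20 left the log2 differences of the members unchanged, so neither is a separate check of them. The number of genes called overall ranged from 1513 to 1712 with a tumor left out and from 1352 (pseudocount of 8) to 1652 (DESeq2 on recovered reads), against 1596. Calls among pathway genes ranged from 17 to 19 and from 14 to 17, against 17. With a filter at a mean of 20, *Ano7*, *Gucy2c* and *Slc26a4* were not tested, and *Slc26a4* lost its call at a pseudocount of 8 (log2 0.99). *Stk39* gained a call in 6 of the fits without a tumor, *Clic6* in 3 and *Aqp3* in 2. Of the flanking genes, 1 was called, 1 to 3 with a tumor left out and 2 with DESeq2 on recovered reads (*Asz1* and *Wnt2*, the cause was not tested).

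Replicate numbers did not pair the tumors: deviations of same-numbered tumors correlated between -0.280 and 0.0796. With replicate number as a block, 7 members, 16 pathway genes, 1 flanking gene and 1554 genes overall were called, and *Slc26a4* was lost (adjusted p = 0.0598). *Clca4a*, *Clca4b*, *Guca2a* and *Guca2b* lay near the floor of 3 reads in CTL tumors, which limits the precision of their ratios. These genes, with *Gucy2c*, *Slc26a4*, *Ano5*, *Ano7* and the markers *Alpi*, *Fabp2* and *Muc2*, reached the lowest listed mean, 9.28, only through their KD values.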
